A study of Mus musculus with 10 samples.

Results

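The genes S100g, Trpv6, Vdr, Cyp24a1 and Atp2b1, which serve intestinal calcium absorption and its control by vitamin D, were followed in terminal ileum of mice after vertical sleeve gastrectomy. They were taken by symbol from a table of 36401 genes, each symbol had 1 Ensembl ID, and all 5 were found. The study sequenced RNA from male C57Bl6 mice made obese with a diet that gave 60% of its energy as fat for 6 weeks before surgery, which was done at 8 weeks of age. Of the 10 libraries, 5 came from mice after vertical sleeve gastrectomy (VSG), in which the greater curvature of the stomach is resected, and these mice then ate freely. The other 5 came from sham-operated mice whose rations were matched to the intake of the VSG mice (SPF, sham pair-fed). Both groups had a liquid diet for 4 days around surgery, and were sampled about 8 weeks later, after an overnight fast and 1 hour after 0.5 mL of the liquid diet Osmolite by gavage. Total estimated counts ran from 15364651 to 34058181 per library.

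As background, calcium crosses the enterocyte in 3 steps. It enters through the apical channel TRPV6, is carried across the cytosol by calbindin-D9k, the small EF-hand protein encoded by S100g, and is pumped out at the basolateral side by the calcium ATPase PMCA1, encoded by Atp2b1. The vitamin D receptor, encoded by Vdr, binds the hormone 1,25-dihydroxyvitamin D as a heterodimer with a retinoid X receptor and raises transcription of S100g, Trpv6 and Cyp24a1. Cyp24a1 encodes the 24-hydroxylase that inactivates the hormone, and is widely used as a reporter of vitamin D receptor activity. In rodents S100g and Trpv6 are best known from the duodenum, while the receptor is present along the whole intestine.

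The start regions of S100g and Trpv6 are shown because these genes serve consecutive steps of uptake, and S100g was counted in all 10 libraries while Trpv6 was counted in 2. Both windows run from 250 bases before to 50 bases after the RefSeq start (build GRCm38.p6; the authors' files are on mm9, and no position was carried between builds). Capitals mark the letters AGGTCA, a hexamer to which nuclear receptors bind, on either strand, and TATAAA.
S100g, chrX:162964550-162964849, minus strand: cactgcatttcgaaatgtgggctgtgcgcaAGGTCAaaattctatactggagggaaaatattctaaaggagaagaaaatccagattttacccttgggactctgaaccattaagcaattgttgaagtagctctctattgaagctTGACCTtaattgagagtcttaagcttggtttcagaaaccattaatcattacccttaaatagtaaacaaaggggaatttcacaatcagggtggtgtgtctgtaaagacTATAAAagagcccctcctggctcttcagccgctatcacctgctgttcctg
Trpv6, chr6:41636356-41636655, minus strand: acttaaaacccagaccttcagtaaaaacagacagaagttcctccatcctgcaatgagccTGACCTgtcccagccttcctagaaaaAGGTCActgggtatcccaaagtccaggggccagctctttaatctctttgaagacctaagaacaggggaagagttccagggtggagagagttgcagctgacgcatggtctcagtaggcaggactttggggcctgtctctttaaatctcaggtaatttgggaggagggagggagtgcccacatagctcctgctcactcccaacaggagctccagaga
The S100g window held AGGTCA 2 times, at bases 31 to 36 and, on the other strand, 144 to 149, and TATAAA at bases 251 to 256. The Trpv6 window also held AGGTCA 2 times, at bases 60 to 65 on the other strand and 86 to 91. The window of Vdr and both windows of Atp2b1 held neither. AGGTCA occurred in 16.3% and TATAAA in 13.6% of all 32851 windows of this length. The full vitamin D response element consensus, a direct repeat of such hexamers with 3 bases between them (DR3), occurred in 0.0396% of them and in none of the windows of these genes. The windows of 4 of the 5 genes were matched, and Cyp24a1 was not.

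VSG 2, SPF 2 and SPF 4 differed from the other 7 libraries in their markers of position along the gut, across both groups. In them, in that order, the summed level of 8 markers of the upper small intestine was 2803, 3235 and 3057 CPM (counts scaled to library size with TMM factors), against 65.8 to 150 in the other 7 libraries. SPF 4 alone held 14.5 CPM of Pdx1, a transcription factor of the duodenum, which stood between 0 and 0.354 CPM in the other 9. Not every marker of the 8 went this way. Slc40a1, the iron exporter, stood at 7.22, 3.68 and 13.65 CPM in the 3 libraries and was higher in the others, at 35.8 to 98.3 CPM. Cybrd1, an iron reductase, overlapped between them, and Pdx1 was near 0 in VSG 2 and SPF 2 (0.0776 and 0.0323 CPM). The ileal bile acid genes Fabp6, Slc10a2 and Fgf15 mark a defining function of the labelled tissue. They summed to 53.5, 79.0 and 66.2 CPM in VSG 2, SPF 2 and SPF 4, against 2993 to 6358 CPM in the other 7. Fabp6 made up most of the sum, and each of the genes was lower in these 3 libraries than in any of the other 7. Fold changes of the main genes below are given with and without these 3 libraries. Enterocyte markers were present in all 10 libraries, with a summed level of 15730 to 22310 CPM in VSG and 8790 to 23760 in SPF. In a bulk tissue, fewer cells of a type and less RNA per cell cannot be told apart.

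**Figure D1:**
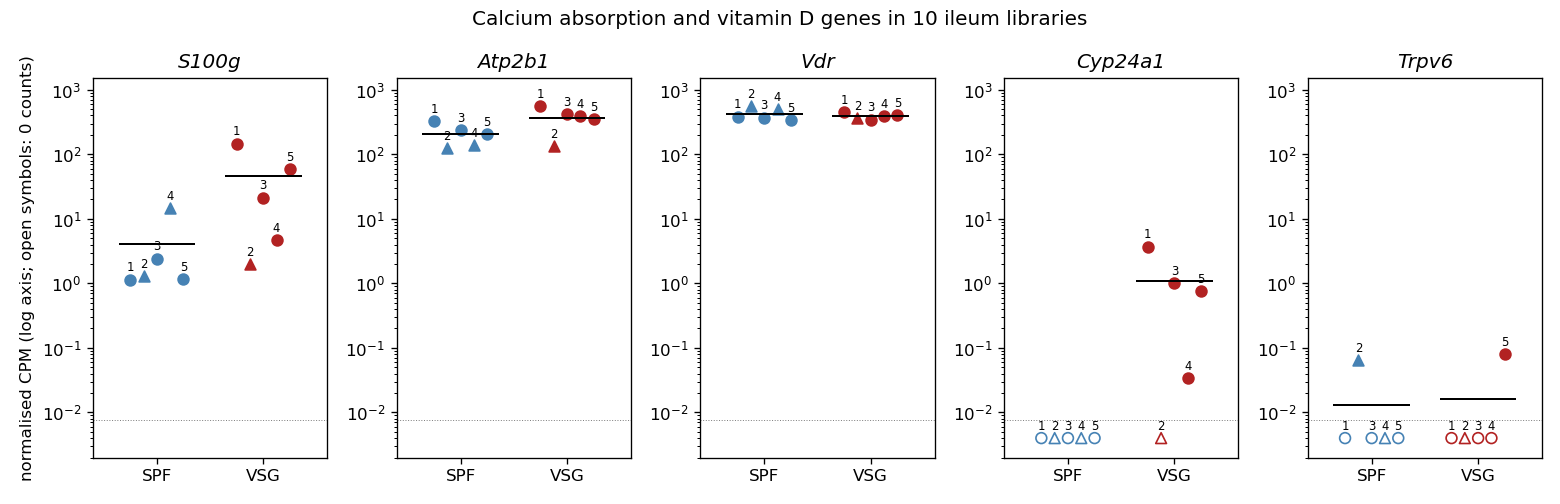
Normalised CPM of the 5 genes (log axis, 1 panel per gene) in SPF and VSG libraries, with replicate numbers, bars for group means, triangles for VSG 2, SPF 2 and SPF 4, and open symbols below the dotted line for 0 counts. S100g spans 1.14 to 146 CPM and Cyp24a1 was counted in VSG libraries only, while Vdr stays between 335 and 557 CPM.

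S100g, the calbindin of the cytosolic step, varied most between libraries among the 3 genes that could be tested. It stood at 146, 1.98, 21.3, 4.72 and 58.3 CPM in VSG 1 to 5. In SPF 1 to 5 it stood at 1.14, 1.29, 2.40, 14.5 and 1.17 CPM. The 3 highest libraries were VSG 1, VSG 5 and VSG 3, the next was SPF 4, and VSG 2 lay among the low sham libraries, so the groups overlapped. These levels rest on 35 to 61 counts in each of the 4 low sham libraries and on 3747 counts in VSG 1. The group means were 46.5 ± 60.2 CPM in VSG and 4.10 ± 5.83 CPM in SPF (SD, n = 5 each). The fitted log2 fold change was 3.55 ± 1.19 (SE), that is 11.7-fold with a 95% interval from 1.91 to 71.7. With edgeR's quasi-likelihood test this did not pass the threshold after Benjamini-Hochberg adjustment over all genes (edgeR adjusted p = 0.977), and its unadjusted p ranked 133 of 15678.

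The size of the S100g difference rested on single libraries. It was 5.43-fold without VSG 1 and 31.3-fold without SPF 4, the library with Pdx1. Without VSG 2, SPF 2 and SPF 4 the 4 VSG libraries, from 4.72 to 146 CPM, all lay above the 3 SPF libraries, from 1.14 to 2.40 CPM. The log2 fold change there was 5.22 ± 1.13 (37.2-fold, edgeR adjusted p = 0.603). VSG 2 was the lowest VSG library for S100g and SPF 4 the highest SPF library, so leaving them out removed the overlap. The libraries left out were picked with earlier results known, so the separation is a description only. Among all 15911 genes tested in those 7 libraries, 4.36% had every VSG library above every SPF library. Ctps2, which lies across S100g on the other strand, shares 0 exon bases with it and stood at 9.34 to 15.8 CPM in all 10 libraries.

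Cyp24a1, the 24-hydroxylase, was counted in VSG libraries only. The deposited counts were 95, 0, 15.4, 1 and 19.0 in VSG 1 to 5, and 0 in each of the 5 SPF libraries. VSG 1, VSG 5 and VSG 3, which held the most S100g, also held the most Cyp24a1, and VSG 2 held none. On the CPM scale VSG 1 to 5 stood at 3.71, 0, 1.01, 0.0337 and 0.760, so its level was low even where it was highest. The VSG mean was 1.10 ± 1.52 CPM (SD, n = 5), 52.8-fold over a floor of 3 counts in the whole SPF group (0.0209 CPM). This ratio covers counting error in SPF only, not the spread between libraries, and is no lower bound on the group fold. It was 21.9 without VSG 1, 38.8 without SPF 5 and 43.5 without VSG 2, SPF 2 and SPF 4. In the last case all 4 remaining VSG libraries held counts and the 3 SPF libraries none. VSG 2, left out there, was the only VSG library at 0. The gene then passed the count filter, but only through VSG libraries, since SPF held 0 counts (edgeR adjusted p = 0.633). Both the separation and this p are thus a description only. Of all genes tested in those libraries, 4.36% had every VSG library above every SPF library.

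Cyp24a1 had too few counted libraries to pass the count filter of the main test. In a fit without that filter it ranked 53 of 24701 genes by p (edgeR adjusted p = 0.819), and with DESeq2 it was not called either (DESeq2 adjusted p = 0.361). A pattern of at least 10 counts in at least 3 libraries of one group and 0 in all 5 of the other was then counted over the 24701 genes with any count, a rule chosen after the values of Cyp24a1 were seen. Cyp24a1 was the 1 gene that met it with VSG as the counted group (0.00405%), and 0 genes met it with SPF as the counted group. That Cyp24a1 itself met the rule was fixed by this choice, so the share only describes the other genes. Pfdn4, on the other strand, shares 83 of the 3560 exon bases of Cyp24a1. It stood at 4.81 to 7.95 CPM in all 10 libraries, also where Cyp24a1 had 0 counts, and had a log2 fold change of -0.06.

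Trpv6, the apical channel of the entry step, was close to absent. It had 2 counts in VSG 5, 2 in SPF 2 and 0 in the other 8 libraries, including VSG 1 and VSG 3, where S100g was high. Over a whole group 3 counts would correspond to 0.0248 CPM in VSG and 0.0209 CPM in SPF, so no difference between the groups was detectable at this depth. Trpv5, its renal relative, had 0 counts in all 10 libraries, which allows up to 0.0113 CPM. Of the 3 libraries with high upper intestine markers, VSG 2 and SPF 4 had no Trpv6 count.

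Atp2b1, the calcium pump of the exit step, was higher on average in VSG, with overlap. It stood at 554, 133, 422, 393 and 349 CPM in VSG 1 to 5, and at 324, 124, 238, 140 and 205 CPM in SPF 1 to 5. The 3 lowest values were those of VSG 2, SPF 2 and SPF 4. In these libraries the summed upper small intestine markers were high and the ileal bile acid genes low. The means were 370 ± 153 CPM in VSG and 206 ± 80.5 CPM in SPF (SD, n = 5 each). The log2 fold change was 0.85 ± 0.36 (SE), or 1.80-fold with a 95% interval from 1.03 to 3.13, and did not pass (edgeR adjusted p = 0.977). Without those 3 libraries the 4 VSG libraries, from 349 to 554 CPM, lay above the 3 SPF libraries, from 205 to 324 CPM. VSG 2, left out there, was the only VSG library below the highest SPF library, so this separation is a description only. The same separation was found for 4.36% of all genes tested in those 7 libraries. The log2 fold change of Atp2b1 there was 0.75 ± 0.23 (edgeR adjusted p = 0.633).

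Vdr, the receptor itself, showed the smallest difference of the 3 tested genes. In VSG 1 to 5 it stood at 447, 366, 346, 392 and 406 CPM, and in SPF 1 to 5 at 381, 557, 369, 500 and 335 CPM. Only SPF 2 and SPF 4 lay above the VSG range, and both had high upper intestine markers. The means were 391 ± 38.7 CPM in VSG and 428 ± 95.1 CPM in SPF (SD, n = 5 each). The log2 fold change was -0.13 ± 0.17 (SE), with a 95% interval from 0.703-fold to 1.19-fold (edgeR adjusted p = 0.977). Without VSG 2, SPF 2 and SPF 4 its sign turned, to 0.14 ± 0.16 (edgeR adjusted p = 0.861). The libraries with the most S100g and Cyp24a1 thus held 447, 406 and 346 CPM of the receptor, within the range of the sham libraries.

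**Figure D2:**
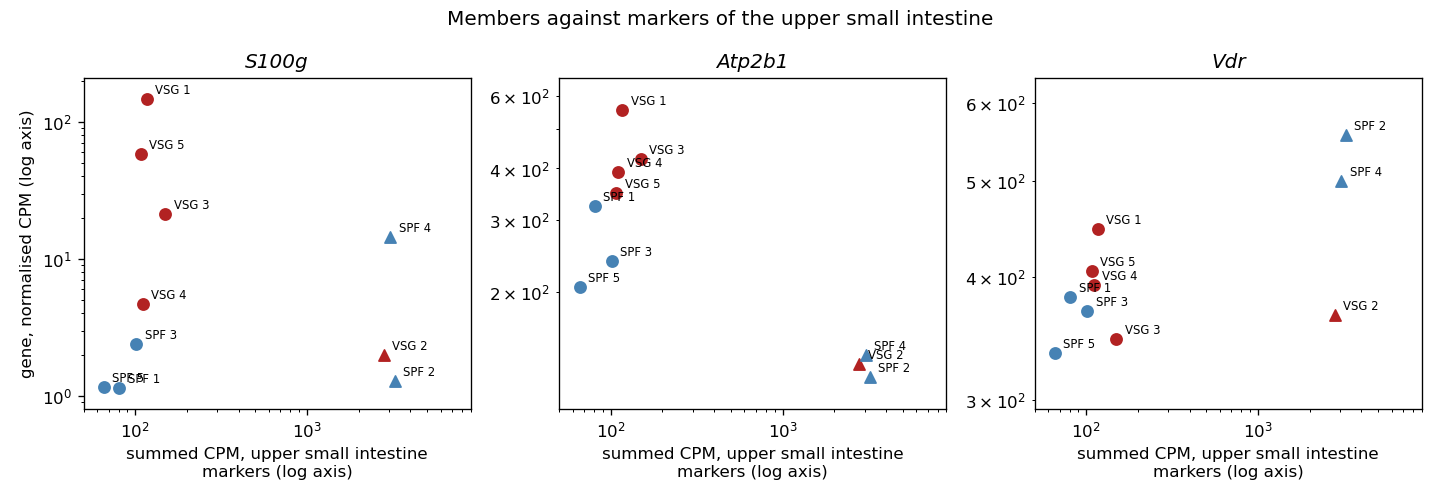
Normalised CPM of S100g, Atp2b1 and Vdr (vertical log axes) against the summed CPM of 8 upper small intestine markers (horizontal log axes), 1 point per library, VSG red and SPF blue. The 3 libraries on the right (triangles) are the lowest for Atp2b1, while for S100g SPF 4 lies at 14.5 CPM and VSG 2 and SPF 2 at 1.98 and 1.29 CPM.

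Per kilobase of exon, a scale on which genes can be set beside each other, the order of the 5 genes by group mean differed between the groups. On this RPKM scale the mean level over SPF libraries was 75.8 for Vdr, 13.5 for Atp2b1, 8.54 for S100g, 0 for Cyp24a1 and 0.0033 for Trpv6. Over VSG libraries it was 97.0 for S100g, 69.2 for Vdr, 24.3 for Atp2b1, 0.310 for Cyp24a1 and 0.0041 for Trpv6. The place of S100g was not fixed in either group: it ran from 4.13 to 305 RPKM in VSG and from 2.37 to 30.2 in SPF, on both sides of Atp2b1, which ran from 8.77 to 36.4 and from 8.14 to 21.3. In SPF, Vdr at 59.3 to 98.6 RPKM lay above the other members in all 5 libraries. In VSG 1 and VSG 5 S100g, at 305 and 121 RPKM, lay above Vdr, at 79.0 and 71.8. In VSG 2, VSG 3 and VSG 4 Vdr, at 64.74, 61.15 and 69.36 RPKM, lay above S100g, at 4.13, 44.46 and 9.83. Exon lengths came from an annotation of another build and cover all transcripts of a gene, so these levels are approximate.

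Over all genes, edgeR called 0 of 15678 between VSG and SPF (0%), limma-voom called 0, and DESeq2 called 14 (0.082%), none of them on the calcium and vitamin D lists. At an unadjusted p under 0.05 edgeR counted 595 genes, 1.88% of all tested being higher in VSG and 1.91% lower. S100g and Atp2b1 were 2 of them. Among such genes 49.6% were higher in VSG, a share that was 61.5% in the log2 files, 32.2% with scaling to totals and 30.4% with upper quartile factors. All VSG libraries lay above all SPF libraries for 0.255% of genes and below them for 0.293%. None of the 5 genes was among these.

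The other genes of the pathway were taken from a list of 34 ordered by role, of which 29 are not among the 5. Of the 29, 24 were tested: 11 had higher and 13 lower values in VSG, with 0 called and a median log2 fold change of -0.07, beside -0.045 over all genes tested. Among all genes 41.9% had higher values in VSG. With the members included, 27 of the 34 were tested, 13 higher and 14 lower, with a median of -0.02. Over the same 7 libraries as above, members again included, 18 of 28 tested genes had higher and 10 lower values, and 0 were called. The median was 0.06 beside -0.051 over all genes, of which 43.2% had higher values. Cyp24a1 was tested only in this case. It passed the filter through VSG libraries alone, with 0 counts in SPF, and so could only count as higher. The libraries left out were picked with earlier results known, so these counts are a description only.

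Slc30a10, a manganese exporter of the apical membrane whose gene is known to respond to vitamin D in intestinal cells, had the lowest p of the other listed genes. It stood at 186, 41.8, 146, 108 and 226 CPM in VSG 1 to 5, and at 27.2, 23.3, 26.9, 119 and 19.0 CPM in SPF 1 to 5. SPF 4 was the only sham library within the range of VSG. The log2 fold change was 1.72 ± 0.58 (SE), and 2.57 without SPF 4 (edgeR adjusted p = 0.977 and 0.841). Without VSG 2, SPF 2 and SPF 4 it was 2.78 ± 0.28, or 6.85-fold, with the groups apart. Every VSG library also lay above every SPF library for 4.36% of the 15911 genes tested there. Slc30a10 had the lowest p of these 15911 genes, but did not pass the adjustment (edgeR adjusted p = 0.0855). The list and the 3 libraries left out were chosen with earlier results of these data known, so this rank is a description only.

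**Figure D3:**
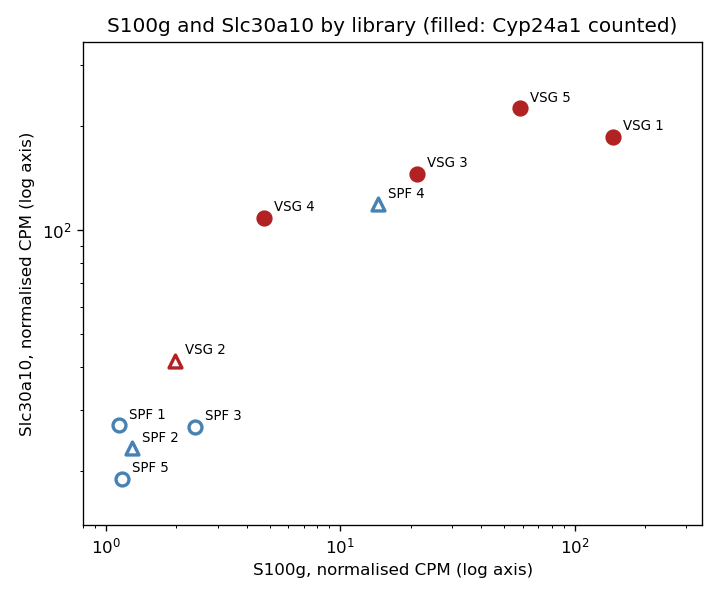
Normalised CPM of S100g (horizontal log axis) against Slc30a10 (vertical log axis), 1 point per library, VSG red and SPF blue; filled points are libraries with Cyp24a1 counts and triangles are VSG 2, SPF 2 and SPF 4. The 4 libraries with Cyp24a1 counts lie at 108 CPM of Slc30a10 or above, and SPF 4 lies among them with 119 CPM but no Cyp24a1 count.

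Other listed vitamin D responsive genes went in both directions. Abcb1a, the efflux pump P-glycoprotein and the most abundant gene of that group, stood at 771, 175, 918, 1165 and 946 CPM in VSG 1 to 5, and at 787, 409, 564, 142 and 203 CPM in SPF 1 to 5. Its log2 fold change was 0.92 ± 0.53 (SE) over all libraries (edgeR adjusted p = 0.977) and 0.88 without the 3 libraries. Cyp3a11, a cytochrome P450 named here after its values were seen, had a log2 fold change of -1.62 ± 0.88 (edgeR adjusted p = 0.977) and 0.16 without them. It stood at 76.9, 163 and 265 CPM in VSG 2, SPF 2 and SPF 4 and at 11.6 to 30.9 CPM in the other 7.

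Among genes of vitamin D reception, metabolism and sensing, Vdr included, 6 of 10 passed the count filter, with 3 higher, 3 lower and 0 called. Cyp27b1, the enzyme that makes the active hormone, did not pass the filter, and neither did Gc, the plasma carrier of vitamin D, or the calcium-sensing receptor Casr. Cyp27b1 ran from 0 to 0.194 CPM in VSG and from 0 to 0.167 CPM in SPF. Cyp2r1, a 25-hydroxylase, had the lowest p of the group, at 0.349 to 1.16 CPM in VSG and 0.780 to 1.78 CPM in SPF, a log2 fold change of -0.73 ± 0.35 (edgeR adjusted p = 0.977), and -0.33 without the 3 libraries. Pdia3, a disulphide isomerase of the endoplasmic reticulum also described as a membrane binder of the hormone, was the most abundant and had a log2 fold change of 0.05 ± 0.16, whose sign turned to -0.05 without the 3 libraries. The partner receptors Rxra and Rxrb, named after their values were seen, had log2 fold changes of 0.07 ± 0.15 and -0.13 ± 0.14.

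None of the other tested genes of entry, buffering and exit was called. Of 7 entry genes 5 were tested, with 3 higher, 2 lower and 0 called. Anxa2, an annexin that with S100A10 helps carry TRPV channels to the membrane, had the lowest p and the highest level of these, at 1108 to 1595 CPM in VSG and 810 to 1698 CPM in SPF (log2 fold change 0.33 ± 0.24, edgeR adjusted p = 0.977; 0.36 without the 3 libraries). Calb1, the larger calbindin of kidney and brain, was at 0 in VSG 1 to 4, at 0.600 CPM in VSG 5 and at most 0.130 CPM in SPF. Calb2, which encodes calretinin, had a log2 fold change of -0.67 ± 0.59. Both calbindin relatives were named after their values were seen.

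The 4 other export genes, Atp2b2, Atp2b3, Atp2b4 and the sodium-calcium exchanger Slc8a1, all had lower values in VSG, with log2 fold changes of -0.20, -0.56, -0.69 and -0.82, and 0 were called. Atp2b4, the most abundant of them, stood at 13.4 to 27.3 CPM in VSG and at 4.06 to 54.8 CPM in SPF, with its lowest value in SPF 3 and its highest in SPF 5. The same libraries were lowest and highest for 7 smooth muscle markers, whose summed level was 726 to 1542 CPM in VSG and 288 to 3733 CPM in SPF. All 7 were detected and 0 of them had a higher mean in VSG, and their part in the Atp2b4 and Slc8a1 values was not tested.

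No gene of the route between cells or of phosphate uptake was called. Of the claudins, pore or barrier proteins of tight junctions, Cldn12 had the lowest p, at 36.6 to 51.9 CPM in VSG and 32.1 to 40.4 CPM in SPF (log2 fold change 0.15 ± 0.12, edgeR adjusted p = 0.977; 0.21 without the 3 libraries). Cldn15, the most abundant, had a log2 fold change of -0.30 ± 0.35, and of 0.03 without the 3 libraries. Slc34a2, the sodium-phosphate cotransporter of the ileal brush border, stood at 219 to 1037 CPM in VSG and 41.3 to 914 CPM in SPF (log2 fold change 0.25 ± 0.64, edgeR adjusted p = 0.985; 0.20 without the 3 libraries). Slc20a1, a second kind of phosphate transporter, had a log2 fold change of -0.32 ± 0.24, and of -0.17 without the 3 libraries.

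**Figure D4:**
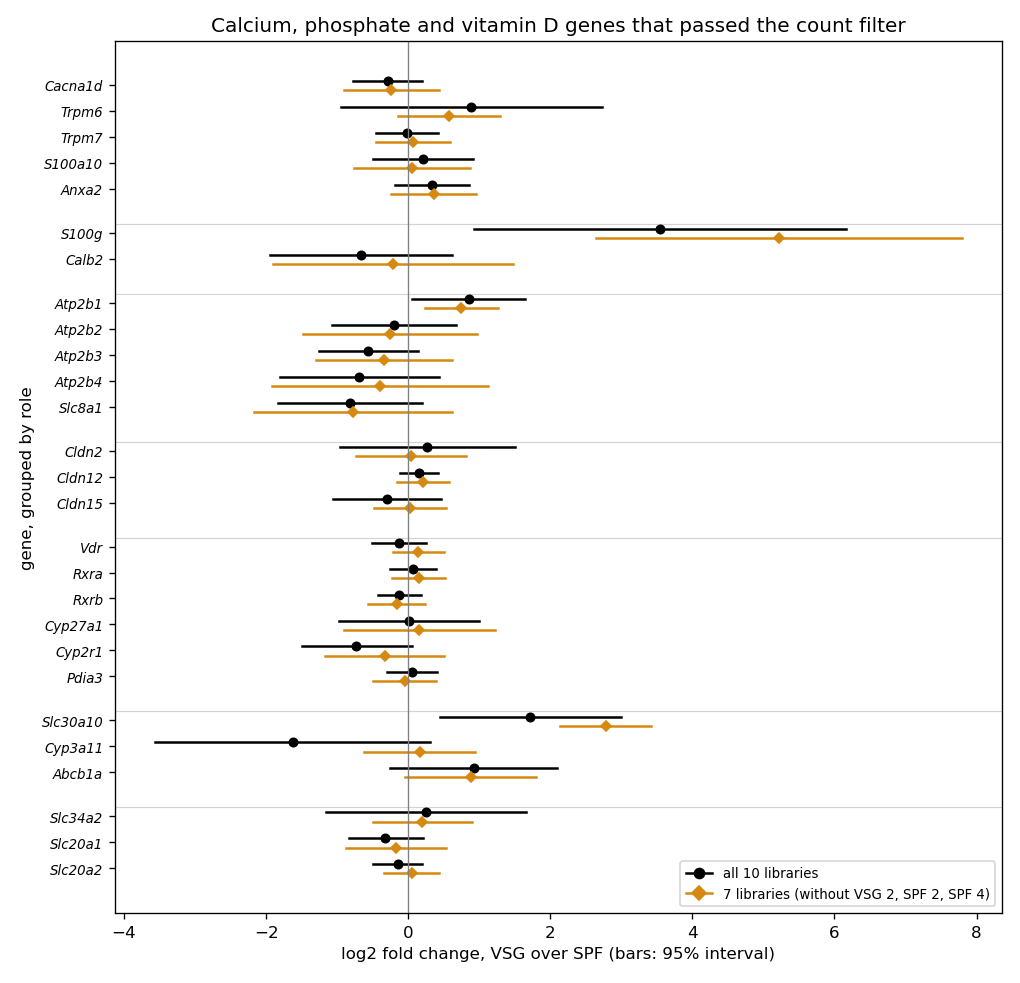
Log2 fold change of VSG over SPF with its 95% interval for the 27 of 34 listed genes that passed the count filter, in all 10 libraries (black circles) and in 7 (orange diamonds), with grey lines between roles. S100g at 3.55 and Slc30a10 at 1.72 lie farthest to the right, and in all 10 libraries the intervals of all genes but these and Atp2b1 include 0.

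By likeness of log2 CPM over the 10 libraries, the gene most like S100g among 14178 with a mean of at least 1 CPM was Slc30a10, with Pearson's r of 0.925. Next were Nras (0.889), Slc35f2 (0.888), Ehbp1l1 (0.882) and 2010109K11Rik (0.879). For Cyp24a1, whose pattern rests on 4 libraries with counts, the first was 2010109K11Rik (0.947), followed by Pmepa1 (0.931), Gm14137 (0.920), S100g (0.894) and Trp53inp2 (0.888). Atp2b1 was most like Hspa1b (0.975), Slc22a21 (0.967), Sema3c (0.967), Pdp1 (0.962) and Glul (0.948), and Vdr most like Dcaf8 (0.907), Pex5 (0.903), Sema4g (0.892), Zfand6 (0.892) and Erf (0.891). Hspa1b has a near-identical neighbour whose reads may be shared with it. These values describe 10 libraries in which 3 stand apart by position, and no test was made on them. For Trpv6, with 4 counts in all, likeness has no meaning and no gene is named.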

How the data were processed

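The authors deposited 2 files per library. One holds the estimated counts that the authors made from their reads, by Ensembl ID, which are neither divided by length nor scaled although the file names speak of RPKM. The other holds log2 values deposited by the authors, which equal the log2 of those counts over a factor per library minus the SPF median of each gene (largest SD of the offset 2.4e-07). The submitters' processing notes name DESeq and the build mm9; aligner and counting are not given in the sources used here. Per the labels' protocols, TruSeq RNA libraries were read from 1 end over 50 bases; strand is not stated.

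Counts were rounded and tested with edgeR 4.0.16 in R 4.3.3: filterByExpr, TMM factors, a quasi-likelihood F test of group with no other covariate, and Benjamini-Hochberg adjustment over all genes at a threshold of 0.05. Log2 CPM used a prior count of 2. SE is the fold change over the root of F, and intervals are at 95%. RPKM is CPM per kilobase of merged exons in GENCODE M21 (GRCm38), matched by Ensembl ID. Sequences are from RefSeq (GRCm38.p6). The test was checked on simulated counts. DESeq2 1.42.0 and limma 3.58.1 were alternatives. P-values weigh the difference between the groups against the spread between the libraries within them. The labels do not say whether RNA of several mice was pooled. Floors and counts cover counting error only.

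Members, lists and markers were chosen with earlier results of these data known, and the libraries left out together were picked from such results. Named are the 5 members, the listed gene of each role with the lowest p and the one with the highest CPM, and the 5 genes most alike in pattern; others were named after their values were seen.

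Marker lists not described above were summed as well. Colon and caecum markers stood at 139 to 178 CPM in VSG and 133 to 206 in SPF, fibroblast markers at 282 to 431 and 238 to 552, B cell and follicle markers at 15.9 to 183 and 8.73 to 239, and exocrine pancreas markers at 4.92 to 12.6 and 3.64 to 8.19.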

Additional observations from a re-analysis of the deposited data

Results flagged for a closer look

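Single values in 4 cases stood far from the other libraries of their group by Dixon's test at the 95% level. Chance does this for about 1 group in 20 where values are normally distributed, which was not checked for these CPM values. S100g in SPF 4 was at 14.5 CPM, with the next SPF library at 2.40. Cyp24a1 in VSG 1 was at 3.71 CPM, with the next VSG library at 1.01. Trpv6 was at 0.0800 CPM in VSG 5 and at 0.0646 CPM in SPF 2, each from 2 counts with the rest of the group at 0. With 1 library counted and the rest at 0 the test always marks that library, so the chance rate does not apply to Trpv6. SPF 4 was also the sham library with the most Slc30a10 (119 CPM) and Pdx1 (14.5 CPM), and the part of gut position in its S100g value was not tested.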

How the results depend on the processing

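No fit by edgeR or limma called a gene, and DESeq2 called 14, with 0 of the calcium and vitamin D list under any setting. S100g, Atp2b1 and Slc30a10 kept their direction in every setting run. With 1 library left out, the log2 fold change ran from 2.44 (without VSG 1) to 4.97 (without SPF 4) for S100g. It ran from 0.67 to 1.07 for Atp2b1, from -0.20 to -0.02 for Vdr and from 1.50 to 2.57 for Slc30a10. For Slc34a2 it ran from -0.04 to 0.48 and for Pdia3 from -0.03 to 0.18. The ratio of Cyp24a1 to the SPF floor ran from 21.9 (without VSG 1) to 66.0 (without VSG 2). The number of genes called ran from 0 to 0. Without VSG 2, SPF 2 and SPF 4 (added later) the sign turned for 6 listed genes: Vdr (0.14), Cldn15 (0.03), Pdia3 (-0.05), Cyp3a11 (0.16), Slc20a2 (0.05) and Trpm7 (0.07). The other settings were read only for the tested members and the genes named by lowest p or highest CPM, not for the whole list. Among these, with the marker mean as a covariate (added later), the sign turned for Cldn15 (0.02) and Slc34a2 (-0.21). S100g was then at 4.55, Slc30a10 at 2.33, Atp2b1 at 0.53, Abcb1a at 0.48 and Vdr at -0.05. Among the same genes, upper quartile factors and library totals turned Pdia3 (-0.01 in both). The cause was not tested. With a replicate block, for which the labels give no pairing and only 1 of 5 same-numbered pairs had a correlation of deviations over 0.1 (r = 0.182), and 0 of 5 VSG libraries correlated best with their own number, S100g was at 3.09, Atp2b1 at 0.79 and Vdr at -0.11, with 0 genes called and 408 at p under 0.05. Depth limits Cyp24a1, Trpv6, Trpv5, Calb1, Cyp27b1, Gc and Casr, which did not pass the count filter.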
